A study of Caenorhabditis elegans with 3 samples.

Results

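The genes described here encode subunits of the proteasome. They were chosen by symbol as the protein-coding genes whose name starts with pas-, pbs-, rpn- or rpt-. There are 33 of them among the 19973 protein-coding genes on the 6 nuclear chromosomes of C. elegans, 14 in the core particle and 19 in the regulatory particle. Binding of ELT-3, a GATA-type transcription factor known from the epidermis, was measured by chromatin immunoprecipitation and sequencing. The material was whole larvae of the first larval stage, L1, of pooled sex and unknown age, from strain OP75, genotype unc-119(ed3) III; wgIs75. This transgenic line stably makes ELT-3 fused at its C terminus to a GFP-FLAG tag, and the labels give elt-3 as the antibody. Chromatin was sheared by sonication. All 3 libraries belong to 1 group, so no condition can be compared with another. Biological replicate 1 was sequenced as 2 technical libraries, which share 1 peak list and cannot be told apart, and biological replicate 2 as 1. Peaks of different tissues cannot be told apart in whole larvae. The values analysed are peaks without read numbers, and sequencing depth is therefore unknown.

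The proteasome degrades proteins that carry ubiquitin. Its core particle is a barrel in which the outer rings of alpha subunits (pas genes) gate the entry and the inner rings of beta subunits (pbs genes) hold the proteolytic sites. The regulatory particle binds ubiquitin, removes it, and unfolds the substrate with a ring of ATPases (rpt genes), while the other regulatory subunits (rpn genes) form the lid and the rest of the base. In worms, the transcription factor SKN-1 is known to raise proteasome gene expression when proteasome function is impaired. Proteasome genes are expressed broadly, since nearly all cells need the complex.

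A gene was counted as having a promoter peak when a summit of the list that the authors thresholded on reproducibility lay between 1000 bp before and 200 bp after any of its annotated transcript starts. That list is on the ce11 build. Of the 33 proteasome genes, 20, or 60.6%, had such a peak (95% exact interval 42.1 to 77.1%), beside 15.5% of all protein-coding genes. In the core particle 8 of 14 genes had one, or 57.1% (28.9 to 82.3%), and in the regulatory particle 12 of 19, or 63.2% (38.4 to 83.7%). These intervals of the core and regulatory particle overlap widely. Since the genes were proposed with these calls known and the peak call is part of the rule, the counts are a description and were not tested. The intervals cover counting error over genes only, and genes that share a peak are not independent.

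By subcomplex, the lid had the highest share, with a promoter peak at 7 of the 8 lid genes named rpn- (87.5%, interval 47.3 to 99.7%). Any lid gene with another name is outside this count. The beta ring followed with 5 of 7 (71.4%, 29.0 to 96.3%), then the ATPase ring with 3 of 6 (interval 11.8 to 88.2%), the base subunits rpn-1, rpn-2, rpn-10 and rpn-13 with 2 of 4 (interval 6.76 to 93.2%), and the alpha ring with 3 of 7 (42.9%, 9.90 to 81.6%). All of these intervals overlap one another. The remaining gene, rpn-6.2, a second gene named for the subunit Rpn6, had no peak.

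**Figure D1:**
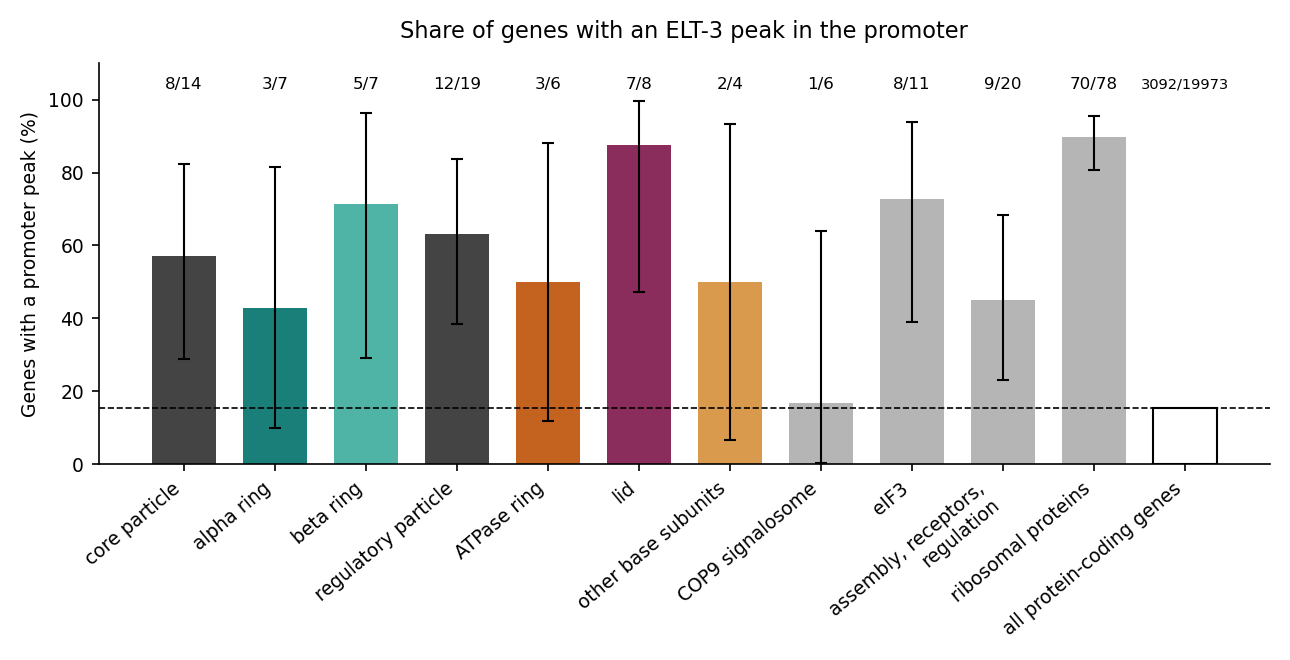
Share of genes with an ELT-3 peak in the promoter (vertical axis, %), for the particles and subcomplexes of the proteasome, for 4 other gene lists and for all protein-coding genes, with gene counts above. Error bars are 95% exact intervals and the dashed line marks the 15.5% of all protein-coding genes. The lid, counted over its 8 rpn- genes, stands at 87.5% and the alpha ring at 42.9%, with overlapping intervals.

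Sequences under 8 of the peaks are printed to show the sites described next. They are given for the peak with the highest signal of the beta ring, the ATPase ring, the lid and the other base subunits, for 2 of the peaks with a GATA site, and for further peaks with a site of the SKN-1 type. Each runs 50 bp to either side of the summit, 5′ to 3′ on the strand of the proteasome gene named, on RefSeq's WBcel235 (ce11); the window of the stronger rpn-6.1 peak is cut short where it enters an annotated untranslated region. Capitals mark every match on either strand to 4 short sequences. These are the GATA site (GATAA or GATAG preceded by A or T), the SKN-1-type site (TATCAT or TGTCAT preceded by a pair of bases that are each A or T), GAGAGA and CTGCGT. None of the 4 overlapped another in these windows. The choice favours the SKN-1-type site, which is in 5 of the 8 windows but near 6 of all 21 proteasome summits, and the strong peaks of pas-4 and rpn-9 and those of the whole alpha ring are not shown.
rpn-3 (chrIII:8447103-8447203, plus strand): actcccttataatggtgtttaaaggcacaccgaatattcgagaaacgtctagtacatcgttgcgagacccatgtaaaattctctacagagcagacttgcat
rpt-2 (chrV:6017758-6017858, minus strand): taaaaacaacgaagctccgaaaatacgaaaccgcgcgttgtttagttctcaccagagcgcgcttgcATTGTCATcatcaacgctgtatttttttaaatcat
pbs-1 (chrIV:1709880-1709980, minus strand): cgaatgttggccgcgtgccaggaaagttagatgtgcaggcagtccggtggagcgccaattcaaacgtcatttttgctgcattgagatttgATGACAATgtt
rpn-2 (chrIII:6198791-6198891, plus strand): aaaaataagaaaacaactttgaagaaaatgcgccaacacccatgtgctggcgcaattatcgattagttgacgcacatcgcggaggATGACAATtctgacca
rpn-12 (chrII:11652926-11653026, plus strand): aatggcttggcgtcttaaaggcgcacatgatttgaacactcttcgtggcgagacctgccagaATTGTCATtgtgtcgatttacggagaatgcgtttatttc
rpn-6.1, weaker peak (chrIII:6961314-6961414, minus strand): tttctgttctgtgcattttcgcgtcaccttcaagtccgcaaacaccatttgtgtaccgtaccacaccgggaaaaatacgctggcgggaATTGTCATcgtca
rpn-6.1, stronger peak (chrIII:6962258-6962339, minus strand): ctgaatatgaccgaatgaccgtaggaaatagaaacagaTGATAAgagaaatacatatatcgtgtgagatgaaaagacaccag
rpt-1 (chrV:11982478-11982578, minus strand): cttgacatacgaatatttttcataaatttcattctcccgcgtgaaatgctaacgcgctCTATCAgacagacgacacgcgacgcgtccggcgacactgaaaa

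The window of the strongest peak, at rpn-3, held none of the 4 sequences. The windows of rpn-6.1 and rpt-1 held the GATA site, as TGATAA centred 9.5 bp past the summit toward rpn-6.1, and as the reverse complement CTATCA centred 10.5 bp past it toward rpt-1. The other 5 windows printed held the SKN-1-type site, each with the same 8 letters, ATTGTCAT, or their reverse complement ATGACAAT. They stand on the gene's own strand at rpt-2, rpn-12 and the weaker rpn-6.1 peak and on the opposite strand at pbs-1 and rpn-2.

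Over all proteasome promoter peaks the GATA site was infrequent. The 20 genes had 21 peaks, since rpn-6.1 had 2, and 3 of the 21, or 14.3%, had the GATA site within 50 bp of the summit, beside 31.5% of the 2591 promoter peaks of the thresholded list. The third was that of pbs-7, with the site centred at -28.5 bp, that is before the summit. Within 100 bp the site was present at 5 of 21 proteasome peaks, or 23.8%, beside 48.8% of all promoter peaks, and within 25 bp at 2 of 21, or 9.52%, beside 17.5%. GAGAGA was present at 2 of the 21, those of pas-3 and pas-5, beside 22.8% of all promoter peaks, and CTGCGT at 2, those of pas-5 and rpn-9, beside 14.1%. At 9 of the 21 peaks, or 42.9%, none of the 4 sequences lay within 50 bp, beside 45.1% of all promoter peaks. These shares describe letters in the sequence and were not tested.

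The SKN-1-type site lay within 50 bp of 6 of the 21 summits, or 28.6%, beside 6.02% of all promoter peaks. It was present at pbs-1 in the core particle and at rpn-2, rpn-6.1 (weaker peak), rpn-11, rpn-12 and rpt-2 in the regulatory particle. All 6 matches read ATTGTCAT, 1 of the 8 forms that the search allowed. Among all promoter peaks, 24, or 0.926%, had these 8 letters within 50 bp, so 6 of the 24 were proteasome peaks and 18 lay at other genes. In each of the 6 the site was centred 15.5 to 43.5 bp past the summit in the gene's direction of transcription. It was centred 119.5 bp before the start at rpt-2, 132.5 bp at rpn-12, 141.5 bp at pbs-1, 304.5 bp at rpn-2 and 382.5 bp before an internal start at rpn-6.1, and at -27.5 bp, that is past the start, at rpn-11, whose summit is 7 bp before its start. The 8-letter form was picked from these peaks after their sequences were seen.

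The same 8 letters were then sought from 500 bp before to 100 bp after any start of every gene, with or without a peak. They were present at 9 of the 33 proteasome genes, or 27.3%, beside 4.69% of all protein-coding genes. Of the 20 proteasome genes with a promoter peak 7 had them, the 6 above and rpt-4, where the site was centred 126.5 bp before a start. The letters were picked from the peaks of those 6 genes, so the proteasome counts given here include them by construction. Of the 13 without a peak 2 had them, pas-2 at 107.5 bp and rpn-1 at 258.5 bp before the start. By particle, 2 of 14 core genes and 7 of 19 regulatory genes had them. Over all genes, 5.82% of those with a promoter peak and 4.48% of those without one had the letters.

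Peak signals of the proteasome genes were spread over strong and weak peaks alike. Each signal was computed by the authors, on a scale that is not stated, and it serves here to rank peaks within a list. The 21 signals ran from 35.7 to 132 with a median of 65.2, beside a median of 60.5 over the 2591 promoter peaks and a highest value of 356 there. With the thresholded list divided by rank into 4 equal bins, 5 of the 21 fell in the strongest bin, 7 in the second, 5 in the third and 4 in the last. Of the 2591 promoter peaks, 651, 665, 650 and 625 fell in the same bins, in that order. The 8 core peaks had a median signal of 63.2 (35.9 to 118), and the 13 regulatory peaks one of 68.6 (35.7 to 132). The ranges of the core and regulatory particle overlap.

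**Figure D2:**
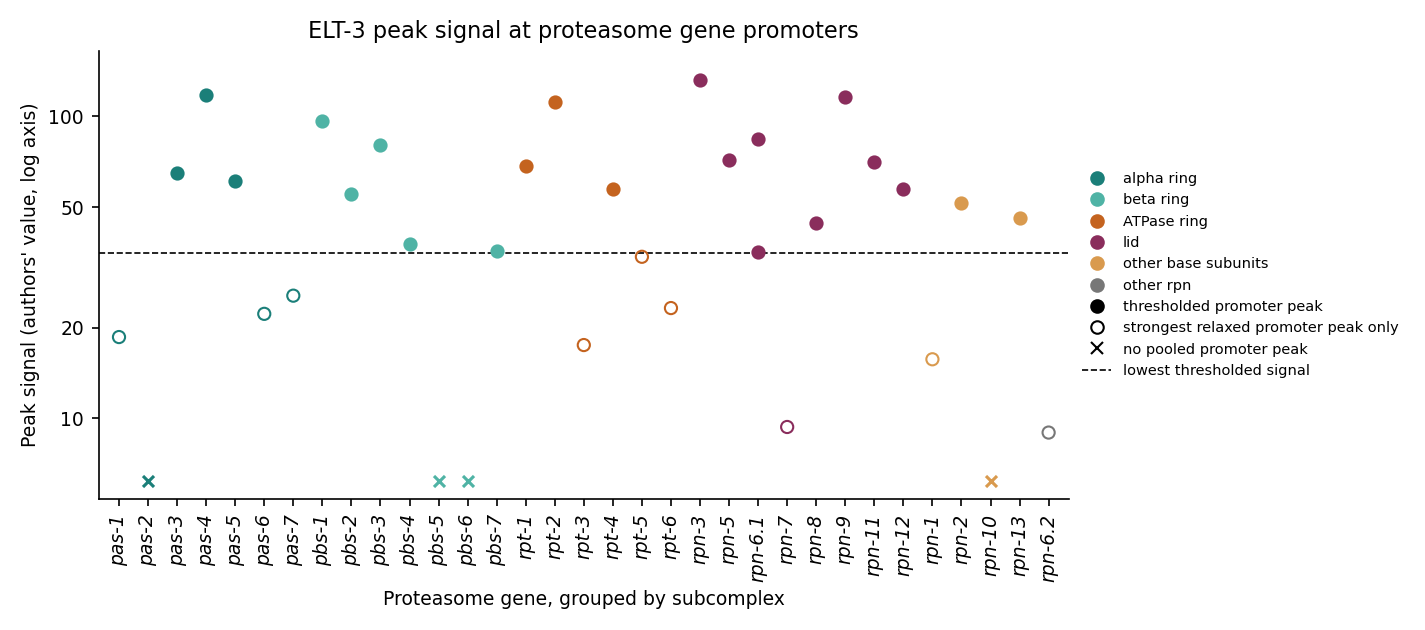
Signal of the ELT-3 peak at each proteasome gene (vertical log axis, authors' value), with genes grouped by subcomplex. Filled circles are thresholded promoter peaks, open circles the strongest promoter peak of the relaxed pooled list where no thresholded one was found, crosses (placed at the bottom, not a value) genes with no pooled promoter peak, and the dashed line the lowest thresholded signal, 35.2; rpn-3 is highest at 132 and rpt-5 lies just under the line at 34.3.

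The alpha ring had 3 marked genes. The pas-4 peak, on chromosome I from 8728459 to 8728778, had a signal of 118, with its summit 132 bp before the pas-4 start and 145 bp before that of rpb-3, a subunit gene of RNA polymerase II, in a noncoding exon of C36B1.16. It ranked 513 in the thresholded list, 406 of 30000 in the list of replicate 1 and 830 of 27330 in that of replicate 2. The pas-3 peak, on chromosome I from 5106018 to 5106337, had a signal of 65.2 and ranked 1874 and 2948 in replicates 1 and 2. Its summit lay 130 bp before pas-3 and only 26 bp before use-1 on the other strand. The pas-5 peak, on chromosome I from 10565896 to 10566215, had a signal of 61.1 and ranks of 1702 and 2741, and it was the only one of the 3 in the promoter of no other gene. Its summit was intergenic, 294 bp before the start.

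In the beta ring the strongest peak was that of pbs-1, with a signal of 96.9, on chromosome IV from 1709770 to 1710089. It ranked 1185 in replicate 1 and 843 in replicate 2, so both replicates held it among their stronger peaks. Its summit was intergenic, 185 bp before pbs-1 and 335 bp before K08D12.3. The pbs-3 peak, on chromosome II from 4955427 to 4955746, had a signal of 80.3 and ranks of 885 and 3876. Its summit, 160 bp before pbs-3, fell in the annotated 3′ UTR of ulp-2, which ends 22 bp upstream on the same strand. The pbs-2 peak, on chromosome I from 12968452 to 12968771, had a signal of 55.4, ranks of 3624 and 2344, and a summit almost midway between pbs-2 (332 bp) and eif-6 (334 bp), a gene for a factor of the large ribosomal subunit.

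The remaining beta ring peaks were weak. That of pbs-4, on chromosome I from 3908448 to 3908767, had a signal of 37.9 and ranks of 2619 in replicate 1 and 6517 in replicate 2. That of pbs-7, on chromosome I from 8696282 to 8696601, had 35.9 and ranks of 3977 and 6442. Both lay near the lower end of the thresholded list, whose lowest signal is 35.2, and in both the rank was better in replicate 1 than in replicate 2. The summit was 139 bp before pbs-4, and at pbs-7 it was 141 bp before that gene and 161 bp before F39H11.1.

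Of the ATPase ring, rpt-2 had the strongest peak, on chromosome V from 6017648 to 6017967, with a signal of 112. It ranked 247 in replicate 1, the best rank of any proteasome peak there, and 1682 in replicate 2. The summit was 139 bp before rpt-2 and 162 bp before aps-1, a clathrin adaptor subunit gene, in a noncoding exon of F29G9.10. The rpt-1 peak, on chromosome V from 11982368 to 11982687, had a signal of 68.6, ranks of 1332 and 4437, and an intergenic summit 131 bp before the start. The rpt-4 peak, on chromosome II from 43682 to 44001, had a signal of 57.3 and the widest gap between replicates, with a rank of 1623 in replicate 1 and 16905 in replicate 2. It lay in an intron of rpt-4, 180 bp before an internal start of that gene and 65 bp before a start of nfyc-1, an NF-Y subunit gene, and with the outermost start of each gene alone rpt-4 had no promoter peak.

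The lid held the strongest peak of the proteasome genes. It was that of rpn-3, a structural lid subunit, on chromosome III from 8447105 to 8447211, with a signal of 132, a rank of 341 in the thresholded list and ranks of 504 and 363 in replicates 1 and 2. Its intergenic summit lay 200 bp before rpn-3 and 244 bp before hsp-110, a chaperone gene on the other strand. The rpn-9 peak, also at a structural subunit, on chromosome II from 11239016 to 11239335, had a signal of 116 and ranks of 755 and 883. Its summit was 257 bp before rpn-9 and 421 bp before T06D8.9. Both of these peaks ranked among the first 1000 of each replicate.

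The lid gene rpn-6.1, whose product clamps the regulatory to the core particle, had a pair of peaks on chromosome III that differed between the replicates. The stronger, from 6962148 to 6962467, had a signal of 83.9 and ranked 455 in replicate 2 but 3699 in replicate 1. Its summit was 307 bp before the start of rpn-6.1 in an intron of F57B9.1, 32 bp before a start of that gene. The weaker, from 6961204 to 6961523, had 35.7 and ranks of 4013 and 6719, in an intron of rpn-6.1 itself, 424 bp before an internal start. The GATA site belonged to the stronger and the SKN-1-type site to the weaker peak.

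The other marked lid genes had middling signals. The peak of rpn-5, on chromosome II from 4698308 to 4698627, had 71.5 and ranks of 1344 and 2103, with the summit 41 bp before rpn-5 and 253 bp before scc-1, a cohesin subunit gene. That of rpn-11, which encodes the deubiquitylating subunit, on chromosome II from 4044393 to 4044712, had 70.4 and ranks of 1306 and 2382. For rpn-12 the peak on chromosome II from 11652816 to 11653135 had 57.4 and ranks of 2014 and 2593, and its summit lay 148 bp before rpn-12 and 247 bp before rad-23, which encodes a receptor that brings ubiquitylated proteins to the proteasome. The weakest, at rpn-8 on chromosome I from 4174895 to 4175214, had 44.3, with a summit 264 bp before rpn-8 and 281 bp before mrps-6, a mitochondrial ribosomal protein gene. It ranked 2465 in replicate 1, and the replicate 2 peak that overlapped it ranked 11593, while another replicate 2 summit in the rpn-8 promoter ranked 3275.

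In the rest of the base, rpn-2, a scaffold subunit gene, had a signal of 51.8 on chromosome III from 6198681 to 6199000, with ranks of 3500 and 2608. The summit was 343 bp before rpn-2 and 427 bp before C23G10.7. The ubiquitin receptor gene rpn-13 had a signal of 46.1 on chromosome III from 6342101 to 6342420, with ranks of 3593 and 3606 and a summit 333 bp before its start, and it shared the peak with no other gene.

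All 13 proteasome genes without a thresholded promoter peak had a weaker one in at least 1 relaxed list. The share of all protein-coding genes with a promoter summit in at least 1 of these lists was not counted, so this count has no comparison. In the relaxed pooled list, which holds 26508 peaks and marks 41.9% of all protein-coding genes, 9 of the 13 had a promoter summit. Closest to the threshold was rpt-5, with a signal of 34.3 and rank 4649, followed by pas-7 with 25.5, rpt-6 with 23.2, pas-6 with 22.2, pas-1 with 18.6, rpt-3 with 17.5, the scaffold gene rpn-1 with 15.7, the lid gene rpn-7 with 9.37 and rpn-6.2 with 8.98. On the inner side of the threshold were the weaker rpn-6.1 peak at 35.7 and pbs-7 at 35.9. No pooled promoter peak was found at pas-2, pbs-5, pbs-6 and the ubiquitin receptor gene rpn-10, and each of these had a promoter summit in the relaxed list of 1 replicate alone. In replicate 1, with 30000 peaks, its rank was 7336 at pas-2, 10884 at pbs-6 and 19736 at pbs-5. In replicate 2, with 27330 peaks, its rank was 26553 at rpn-10, near the end of the list. The pas-2 rank was better than that of rpn-6.2 in replicate 1, 24735, although rpn-6.2 had a pooled peak. For 2 genes the nearest thresholded summit lay just outside the promoter. It was 1140 bp before pbs-5, in the promoter of K05C4.2, whose gene ends 110 bp upstream of pbs-5 on the same strand, and 1317 bp before rpt-6, in the promoter of the histone gene his-72. The nearest thresholded summit of the other 11 genes was between 6380 and 25633 bp away.

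The relaxed lists of both replicates held a peak overlapping every proteasome peak, 21 of 21 beside 95.9% of all promoter peaks. With each replicate cut to as many of its strongest peaks as the thresholded list holds, 23 of the 33 genes had a promoter peak in replicate 1, beside 15.8% of all genes, and 17 in replicate 2, beside 14.1%. All 17 were also among the 23, beside 10.2% of all genes with a promoter peak in both. The 6 genes in replicate 1 alone were pas-7, pbs-4, pbs-7, rpt-4, rpt-5 and rpt-6, and no proteasome gene was in replicate 2 alone. Of the 2591 promoter peaks, 2485 overlapped a peak of both replicates. Of the 21 proteasome peaks, all found in both replicates, 16, or 76.2%, had a better rank in replicate 1 than in replicate 2. Among all 2591 promoter peaks, including those not found in both replicates, it was 1494, or 57.7%. The lists of the replicates differ in size, depth is not known, and the part of depth in this difference was not tested.

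**Figure D3:**
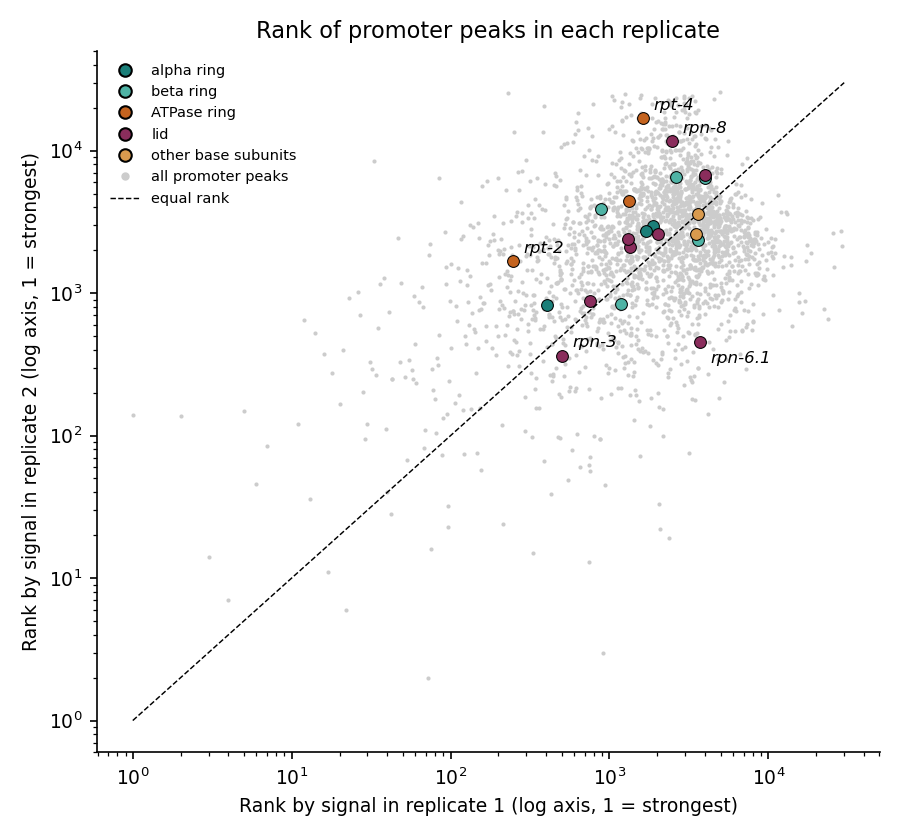
Rank by signal of each thresholded promoter peak in the relaxed list of replicate 1 (horizontal) and of replicate 2 (vertical), both on log axes with 1 the strongest. Coloured points are the 21 proteasome peaks by subcomplex, grey points all promoter peaks found in both replicates, and the dashed line equal ranks; rpt-4 (1623 and 16905) and rpn-6.1 (3699 and 455) lie far from the line on opposite sides.

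All 21 summits lay upstream of the nearest annotated start of their gene, within 500 bp of it. At rpt-4 and the weaker rpn-6.1 peak that was an internal start, and the summit lay inside the gene, past its outermost start. The distance ran from 7 bp at rpn-11 to 424 bp at the weaker rpn-6.1 peak, with a median of 180 bp, beside a median of 230 bp over the 3333 pairs of promoter peak and gene. Over those pairs 94.1% of summits were upstream and 72.1% were 1 to 500 bp upstream. A promoter from 500 bp before to 100 bp after any start marked the same 20 genes, beside 12.4% of all protein-coding genes. The GC content within 50 bp of the summit had a median of 45.5% (34.7 to 50.5%), beside a median of 43.6% over all promoter peaks (19.8 to 72.3%).

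**Figure D4:**
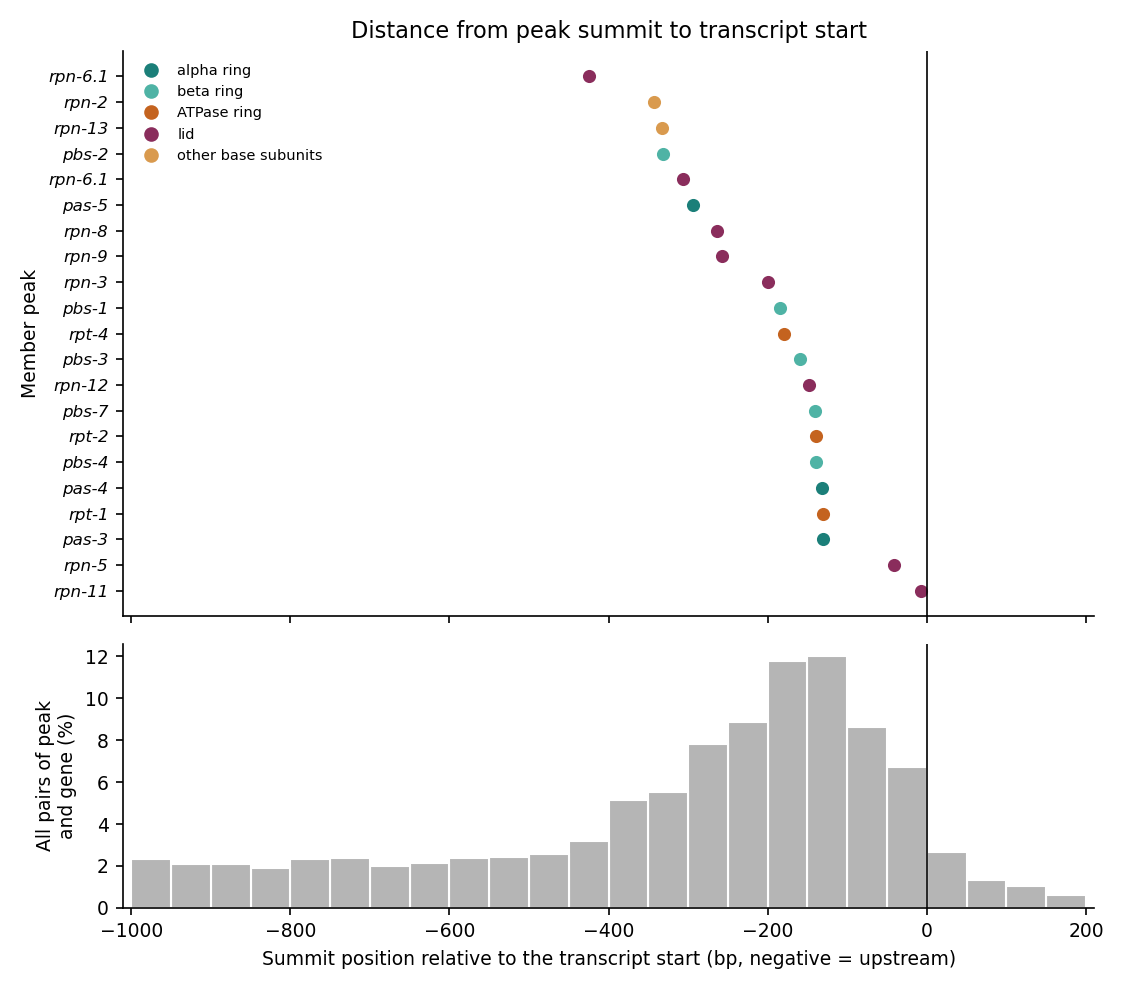
Position of the summit relative to the transcript start (horizontal axis, bp, negative = upstream) for the 21 proteasome peaks (upper panel, coloured by subcomplex) and for all pairs of promoter peak and gene (lower panel, % of 3333 pairs in bins of 50 bp). The proteasome summits lie between 424 and 7 bp upstream of the nearest annotated start, which is internal at rpt-4 and the weaker rpn-6.1 peak.

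Most proteasome peaks lay in the promoter of a second gene as well. This held for 15 of the 21, or 71.4%, beside 27.0% of all promoter peaks, for 5 of the 8 core peaks and 10 of the 13 regulatory peaks. The neighbour's start was nearer to the summit than that of the proteasome gene at pas-3, rpt-4 and the stronger rpn-6.1 peak. With each peak assigned just to the closest start, 18 proteasome genes were marked, beside 12.1% of all protein-coding genes, and pas-3 and rpt-4 were lost. Binding at a shared promoter cannot be assigned to either gene from these peaks.

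The arrangement of the genes was counted as well. Of the 33 proteasome genes, 20, or 60.6%, stand head to head with their nearest upstream neighbour, on opposite strands and at most 1000 bp apart, beside 17.2% of all protein-coding genes. Of these 20 a promoter peak was present at 13, or 65.0%, beside 31.8% of all head-to-head genes. Of the other 13 proteasome genes it was present at 7, or 53.8%, beside 12.1% of all other genes. The head-to-head grouping was chosen after the shared peaks were seen.

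Another arrangement is that of closely spaced genes on 1 strand. For 8 of the 33 the nearest upstream gene lies on the same strand and ends at most 500 bp away, beside 20.6% of all genes. Worm genes in this arrangement are often transcribed together with the upstream gene. Of these 8 a promoter peak was present at 3, pbs-3, rpn-11 and rpn-13 (37.5%, beside 11% of all such genes), and not at pas-1, pbs-5, rpn-6.2, rpn-10 and rpt-3. Of the other 25 it was present at 17, or 68.0%, beside 16.6%. Of the upstream genes of the 5 unmarked ones, rpoa-12, K05C4.2, F59B2.15, mrpl-9 and chtb-2, a promoter peak was found at K05C4.2, with a signal of 51.0 and its summit 262 bp before the start of that gene.

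Genes that work with the proteasome were also counted. Of 20 genes for assembly, ubiquitin supply, receptors and regulation, 9 had a promoter peak, or 45.0% (23.1 to 68.5%), beside 15.5% of all protein-coding genes. The highest signals were 311 at cdc-48.1, an unfolding ATPase gene, and 145 at ubql-1, a ubiquilin gene. The SKN-1 gene itself had a summit 585 bp before a start with a signal of 99.1, and wdr-23, which encodes a repressor of SKN-1, one with 102. The polyubiquitin gene ubq-1 had 37.7 and the ubiquitin fusion gene ubq-2 had 87.9. Also marked were the deubiquitylase gene usp-14 with 43.6, aip-1 with 59.4 and rad-23, by the peak it shares with rpn-12. No promoter peak was found at the rest of the list, dss-1, ubh-4, psmd-9, etc-1, ddi-1, png-1, uba-1, cdc-48.2, ufd-1, npl-4.1 and npl-4.2.

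The lid is related in architecture to the COP9 signalosome and to the translation factor eIF3. Of the 6 signalosome genes counted, csn-1 to csn-6, 1 had a promoter peak, csn-1 with a signal of 53.5. This share of 16.7% (0.421 to 64.1%) is close to the 15.5% of all protein-coding genes. Of the 11 eIF3 genes whose symbol starts with eif-3, 8 had one (72.7%, 39.0 to 94.0%, beside the same 15.5%). The highest signals were 191 at eif-3.C and 114 at eif-3.B. Genes of either complex with other names were not counted. Ribosomal protein genes were marked at 70 of 78, or 89.7% (80.8 to 95.5%), again beside 15.5%. The difference between the proteasome genes and these lists was not tested. In signal, the strongest ribosomal protein peak, at rpl-20 with 356, stood well above the strongest proteasome peak, at rpn-3 with 132.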

How the data were processed

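The authors deposited peak lists in which each peak has a signal value from their peak caller, made with a control, per the deposited file descriptions; its scale is not stated. Neither the peak caller nor the aligner is named there (not given in the sources used here), and the control was not analysed here. A relaxed list of each of the 2 biological replicates, a relaxed list of their pool and a list thresholded on reproducibility, all on ce11, were used; the 4 lists on ce10 were not. All 4530 thresholded peaks were found in the pooled list. Replicate 1's 2 technical libraries share an alignment. The depth is unknown. Gene models were those of Ensembl release 115 (WBcel235, which is ce11), with starts of noncoding transcripts of protein-coding genes included, and sequences those of RefSeq's WBcel235. Signal ranked the peaks. Replicate overlap was 1 bp or more. Short sequences were sought on both strands.

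The members, lists and alternatives were chosen with earlier results of these data known, and no test was run. The 8-letter form and the head-to-head counts were chosen after values were seen. Values are given for every member, and for the strongest of each other list. Exact intervals are Clopper-Pearson at 95%. The assignment was tested on simulated data, and so was the sequence search for the GATA site, GAGAGA and CTGCGT. The search for the SKN-1-type site was not part of that test. Python 3.11.15, numpy 2.4.6, pandas 2.3.3, scipy 1.17.1 and matplotlib 3.10.9 were used.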

Additional observations from a re-analysis of the deposited data

How the results depend on the processing

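Against the 20 proteasome genes with a promoter peak, 8 core and 12 regulatory, the stronger of 2 equal parts of the thresholded list marked 12, 5 core and 7 regulatory, beside 8.35% of all genes; this list holds fewer peaks by construction. Without one of the replicates the count was 17 to 23, with 6 to 9 core and 11 to 14 regulatory genes. The other settings (the relaxed pooled list, narrower and wider promoters, outermost starts, peak overlap, nearest start, removal of peaks up to 20 kb from unc-119 and elt-3) gave 18 to 29 genes. The share of all genes moved too, between 12.1% with the nearest start (18 genes) and 41.9% with the relaxed pooled list (29 genes), against 15.5%. The median signal of 65.2 became 82.1 in the stronger peaks, 57.4 with promoters reaching 2000 bp upstream, 68.6 with outermost starts, 61.1 with peak overlap and 64.8 with the nearest start. The GATA site, at 3 of 21 peaks, was at 5 within 100 bp (48.8% of all promoter peaks) and at 1 as TGATAA only (17.8%). Without one of the replicates it was at 2 of 17 to 4 of 25 peaks. All 21 peaks were found in both replicates, 19 with at least 50% of the peak covered and 16 among the strongest peaks of each replicate, as many as the thresholded list holds. No paired analysis was possible because there is 1 group. Depth is unknown, so no limit from depth can be given.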
